A study of Mus musculus with 16 samples.

Results

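The 7 Krüppel-like factor genes Klf2, Klf3, Klf4, Klf5, Klf6, Klf9 and Klf17 were read by gene symbol from a table of 43437 genes measured in mouse 8-cell embryos. The table holds 17 genes with a Klf name, and the other 10 are taken up further on with their Sp relatives. Values are FPKM, the fragments counted per gene after scaling to transcript length and library size, so levels of different genes are compared per length. A gene was tested if it reached 1 FPKM in 4 or more of the 16 libraries, which 11422 did. By that filter 6 of the 7 members were tested, and Klf6 was not.

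Zygotes had been injected with double-stranded RNA (dsRNA), an agent that lowers the transcript it matches. Each of 4 groups holds 4 libraries: the double knockdown with dsRNA against both Tfap2c and Tead4, the Tfap2c knockdown, the Tead4 knockdown, and the control with dsRNA against GFP. Control embryos were thus also injected. Each group has libraries A1 and A2 from cross A and B1 and B2 from cross B, and per-library values follow that order throughout. Cross A had C57BL/6J×CBA/J mothers, and cross B had C57BL/6J×DBA/2J mothers. Fathers were labelled as C57BL/6J×DBA hybrids, with a number in the DBA name that varies between samples. Each library pooled 10 embryos, about 80 cells, so differences between single embryos or blastomeres are averaged. Separate matings or cultures behind the libraries of a group are not stated in the labels, so the p-values rest on the spread between pools.

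FPKM sums per library ran from 799260 to 874436, and 10049 to 10504 genes reached 1 FPKM. The absolute depth is unknown, and a relative depth estimated from the steps between low values ran from 0.867 to 1.132 of the mean. The knockdowns are partial. Tfap2c, an AP-2 transcription factor, averaged 16.2 ± 0.342 FPKM in the double knockdown and 15.8 ± 1.65 FPKM in the Tfap2c knockdown, against 35.7 ± 6.6 FPKM in the GFP control (SD, n = 4 each). Tead4, the TEAD factor that works with YAP, averaged 9.49 ± 3.94 FPKM in the double knockdown and 7.66 ± 2.49 FPKM in the Tead4 knockdown, against 48.6 ± 7.0 FPKM in the control. It stood at 28.3 ± 7.77 FPKM in the Tfap2c knockdown, a fall of its own (log2 change -0.79, adjusted p = 0.0192). All 9 markers set for the 8-cell embryo, Tfap2c and Tead4 among them, passed the filter. Their summed level ran from 9900 to 12900 FPKM in the double and from 9740 to 11100 in the Tfap2c knockdown. It ran from 11400 to 13500 in the Tead4 knockdown, against 13200 to 15700 FPKM in the control. Dppa3 and Dppa5a made up most of that sum, at 7780 to 8680 and 4870 to 6730 FPKM in the control. The part of these differences in the results was not tested. None of 11 cumulus cell markers and none of 8 sperm markers passed the filter, with summed levels of at most 0.424 and 1.63 FPKM in any library.

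Krüppel-like factors are transcription factors with a conserved set of zinc fingers that bind GC-rich and CACCC sequences. In mouse embryonic stem cells Klf2, Klf4 and Klf5 hold up the naive pluripotent state with overlapping roles. Klf5 is also needed in the mouse blastocyst for both the trophectoderm and the inner cell mass. Klf17 was first described in mouse germ cells. Klf3 acts largely as a repressor that recruits the corepressor CtBP, Klf9 is known as a hormone-responsive factor, and Klf6 is broadly expressed in adult tissues.

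In control embryos the family was led by Klf17 and Klf5. Klf17 averaged 54.5 ± 19.4 FPKM and Klf5 43.1 ± 5.22 FPKM, with overlapping ranges and Klf17 the higher in 2 of 4 libraries. Klf2 followed at 14.5 ± 2.11 FPKM and Klf4 at 10.5 ± 1.01 FPKM, each apart from its neighbours in all 4 libraries. Klf3 at 5.49 ± 0.426 FPKM and Klf9 at 5.4 ± 0.843 FPKM overlapped, and Klf6 was lowest at 0.543 ± 0.515 FPKM. In both groups with Tfap2c dsRNA this order was different. Klf17 stood above Klf5 without overlap, at 134 ± 50.5 against 19.2 ± 6.98 FPKM in the double knockdown and at 126 ± 4.05 against 25.3 ± 3.12 FPKM in the Tfap2c knockdown. Klf4 stood among Klf3 and Klf9, with overlapping ranges. In the Tead4 knockdown the order was that of the control down to Klf4, with Klf17 above Klf5 in 3 of 4 libraries and overlapping ranges.

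**Figure D1:**
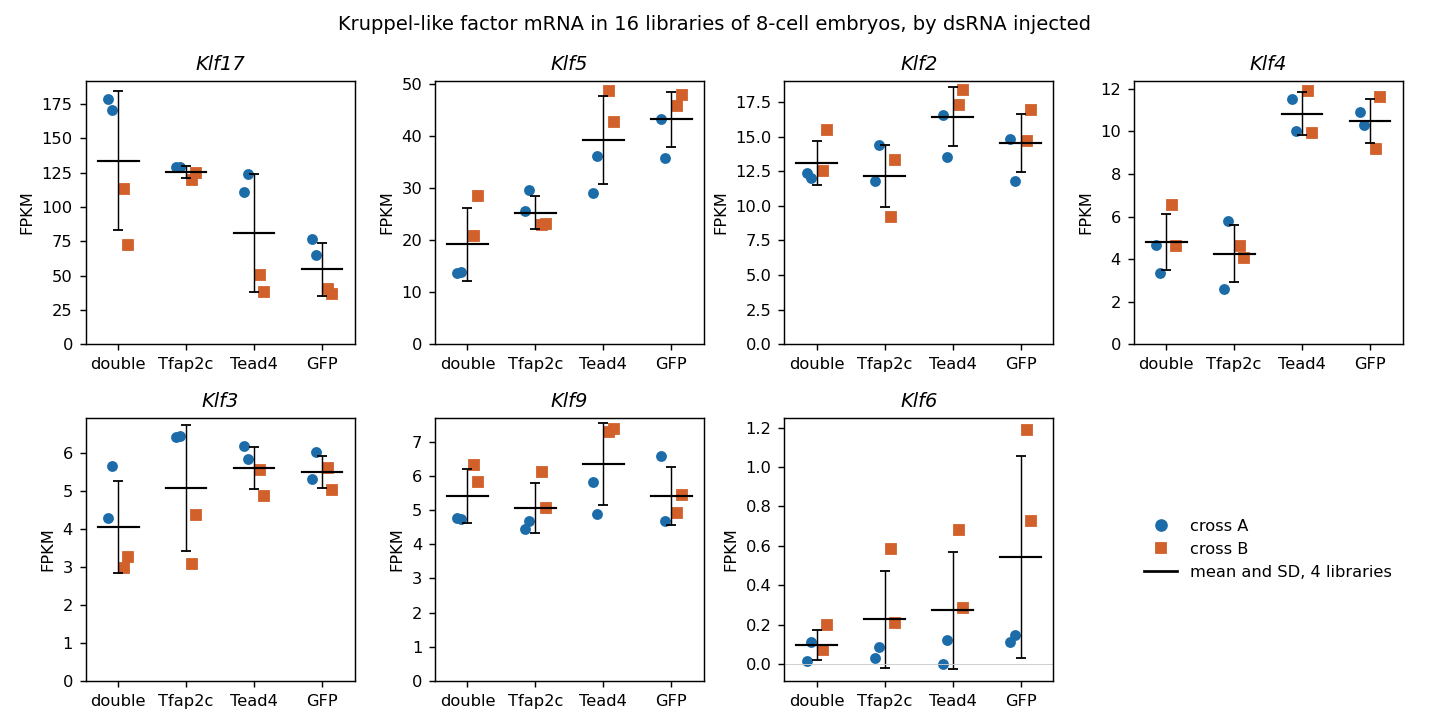
FPKM of the 7 Krüppel-like factors (vertical axes, separate scale per gene) by injected dsRNA (horizontal axis), with 1 point per library, circles for cross A and squares for cross B, and the mean with SD of 4 libraries. Klf4 and Klf5 lie lower in both groups with Tfap2c dsRNA than in the GFP control, Klf17 lies higher, and Klf6 reaches 1 FPKM in 1 library.

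With Tfap2c depleted, Klf4 and Klf5 fell and Klf17 rose, and the other 3 tested members did not pass the test. These 3 of 6 members are set against 29.6% of all genes tested that passed in the Tfap2c knockdown and 25.1% in the double knockdown. Changes below are differences of log2(FPKM + 1) from a limma fit with terms for group and cross, and a gene passed at an adjusted p under 0.05 over the 11422 genes. In bulk samples, fewer cells that express a gene and less of its RNA per cell cannot be told apart.

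Klf4 (ENSMUSG00000003032) lies on the minus strand of chromosome 4 at 55527137 to 55532475 of GRCm38.p6 (mm10). It encodes a reprogramming factor and, in embryonic stem cells, a target of LIF and STAT3. Klf4 stood at 4.66, 3.33, 6.55 and 4.63 FPKM in the double knockdown, while the Tfap2c knockdown libraries held 2.58, 5.81, 4.61 and 4.04 FPKM. The Tead4 knockdown libraries held 11.5, 10.0, 11.9 and 9.92 FPKM, against 10.9, 10.3, 9.19 and 11.6 FPKM in the control. Every library with Tfap2c dsRNA lay below every library without it, and the share of all genes split in this way was not counted. Against the control alone, groups did not overlap, in either direction, for 20.6% of genes in the double and 22.1% in the Tfap2c knockdown. For the double against the Tead4 knockdown this share was 18.7%. The Klf4 means of the double and the Tfap2c knockdown were 45.6% and 40.6% of the control. The log2 change was -1.01 (SE 0.185, adjusted p = 0.00107) in the double knockdown and -1.16 (SE 0.185, adjusted p = 0.000328) in the Tfap2c knockdown. In the Tead4 knockdown it was 0.04 with a 95% interval from -0.35 to 0.44 (adjusted p = 0.942). Within cross B alone the double knockdown gave -0.80 and missed the threshold (adjusted p = 0.0546).

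Klf5 (ENSMUSG00000005148) lies on chromosome 14 at 99298691 to 99313412. It stood at 13.7, 13.8, 20.7 and 28.4 FPKM in the double knockdown, while the Tfap2c knockdown libraries held 25.5, 29.6, 22.9 and 23.0 FPKM. With Tead4 dsRNA alone the libraries held 29.0, 36.2, 48.7 and 42.7 FPKM, against 43.2, 35.8, 45.8 and 47.8 FPKM in the control. Both groups with Tfap2c dsRNA lay below the control without overlap, and the lowest Tead4 knockdown library, A1, lay below the highest Tfap2c knockdown library, A2. The change was -1.18 (SE 0.174, adjusted p = 0.0002) in the double knockdown, with a mean at 44.4% of the control. It was -0.75 (SE 0.174, adjusted p = 0.00495) in the Tfap2c knockdown, with a mean at 58.6% of the control, and within cross A alone it missed the threshold (-0.50, adjusted p = 0.0655). In the Tead4 knockdown the change was -0.15 with an interval from -0.53 to 0.22 (adjusted p = 0.69). Over all genes, groups did not overlap for 20.6% in the double and 22.1% in the Tfap2c knockdown against the control, and for 18.7% in the double against the Tead4 knockdown.

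Klf2 (ENSMUSG00000055148), the other member of the naive pluripotency trio, lies on the plus strand of chromosome 8 at 72319062 to 72321654. It stood at 12.4, 12, 12.5 and 15.5 FPKM in the double knockdown, while the Tfap2c knockdown libraries held 11.8, 14.4, 9.21 and 13.3 FPKM. The Tead4 knockdown libraries held 16.6, 13.5, 17.3 and 18.4 FPKM, against 14.8, 11.8, 14.7 and 16.9 FPKM in the control. All 4 groups overlapped. No change against the control passed: -0.14 in the double knockdown (95% interval -0.45 to 0.16), -0.24 in the Tfap2c knockdown (-0.55 to 0.06) and 0.17 in the Tead4 knockdown (-0.14 to 0.47), with adjusted p from 0.223 to 0.565. Klf2, Klf4 and Klf5 together summed to 37.0 ± 8.98 FPKM in the double knockdown, 41.7 ± 5.64 in the Tfap2c knockdown and 66.4 ± 9.72 in the Tead4 knockdown, against 68.2 ± 7.58 in the control. The highest library of either group with Tfap2c dsRNA, at 48.5 and 49.8 FPKM, lay below the lowest control library at 57.9 FPKM. The sum restates its genes, of which Klf5 was the largest at 43.1 FPKM in the control, and was not tested.

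Klf17 was the member that rose. The gene (ENSMUSG00000048626) lies on the minus strand of chromosome 4 at 117756659 to 117765666. It stood at 179, 171, 113 and 72.0 FPKM in the double knockdown, while the Tfap2c knockdown libraries held 129, 129, 120 and 125 FPKM. With Tead4 dsRNA alone the libraries held 111, 124, 50.3 and 38.4 FPKM, against 76.5, 65.0, 40.3 and 36.4 FPKM in the control. Every Tfap2c knockdown library lay above every control library, and 22.1% of all genes tested were separated in this way in either direction. The double knockdown overlapped the control, since its B2 library lay below control A1. Within each cross both double knockdown libraries lay above both controls. Of all genes tested, 33.1% had that pattern in 1 direction or the other. The log2 change was 1.25 (SE 0.212, adjusted p = 0.000608) in the double knockdown and 1.26 (SE 0.212, adjusted p = 0.000503) in the Tfap2c knockdown, with means at 245% and 231% of the control.

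In the Tead4 knockdown Klf17 gave a log2 change of 0.46 (SE 0.212, 95% interval 0.01 to 0.91), which did not pass over all genes (adjusted p = 0.227). Both cross A libraries, at 111 and 124 FPKM, lay above the cross A controls, while those of cross B, at 50.3 and 38.4 FPKM, overlapped their controls. Within cross A alone the change was 0.73 and passed (adjusted p = 0.0231), and within cross B alone it was 0.20 (adjusted p = 0.733). The difference between these responses, -0.53, was tested as an interaction and did not pass (adjusted p = 0.725). None of the 6 tested members passed in the Tead4 knockdown, where 6.13% of all genes did.

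Among markers of other cell types, the summed level of the blood list moved in the direction of Klf17. It ran from 40.7 to 77.7 FPKM in the double knockdown, from 29.3 to 63.0 in the Tfap2c knockdown and from 20.3 to 50.9 in the Tead4 knockdown, against 9.86 to 26.8 FPKM in the control. Only the alpha-globin genes Hba-a1 and Hba-a2 of its 9 members passed the filter, while the beta-globin genes Hbb-bs and Hbb-bt, the leukocyte gene Ptprc and S100a9 were listed at 0 in all 16 libraries. The part of this in the Klf17 result was not tested.

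The sequences before the start sites of Klf4, which fell, and Klf17, which rose, are shown because AP-2 and TEAD motifs can be looked for in them. They are the 250 bases upstream of the annotated start, 5′ to 3′ on the gene's strand, from RefSeq on GRCm38.p6, where 6 of the 7 members were matched (Klf5 was not). Capitals mark matches to GCCNNNGGC, the AP-2 consensus, which reads the same on both strands.
Klf4, chr4:55532476-55532725, minus strand: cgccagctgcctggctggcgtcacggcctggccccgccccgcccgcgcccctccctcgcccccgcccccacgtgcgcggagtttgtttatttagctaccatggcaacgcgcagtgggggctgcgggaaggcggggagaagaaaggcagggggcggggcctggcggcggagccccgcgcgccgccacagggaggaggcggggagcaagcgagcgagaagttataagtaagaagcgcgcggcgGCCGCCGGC
Klf17, chr4:117765667-117765916, minus strand: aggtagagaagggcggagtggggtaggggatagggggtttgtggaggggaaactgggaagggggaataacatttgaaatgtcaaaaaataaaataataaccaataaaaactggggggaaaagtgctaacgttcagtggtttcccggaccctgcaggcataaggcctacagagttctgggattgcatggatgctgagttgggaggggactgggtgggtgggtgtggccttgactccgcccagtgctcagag
The Klf4 window is 74.0% G and C and the Klf17 window 52.0%, against a median of 52.4% over 32851 such windows. The AP-2 consensus was found once among the 6 windows, at the end of the Klf4 window next to the start site, and in 13.7% of all windows. The TEAD motif GGAATG, searched on both strands, was in none of the 6 windows and in 12.6% of all. The Sp and Krüppel-like box GGGCGG, on both strands, was matched 4 times before Klf4, 2 times before Klf17, 6 times before Klf3, 2 times before Klf2, 1 time before Klf6 and 0 times before Klf9, and stood in 32.7% of all windows. The CACCC box, on both strands, was matched 3 times before Klf17 and 0 times before Klf4, and stood in 52.0% of all windows. These are matches of letters only and say nothing of binding.

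Klf3, Klf9 and Klf6 had the lowest levels in the control and the Tead4 knockdown. Klf3 (ENSMUSG00000029178) lies on the plus strand of chromosome 5 at 64803521 to 64832901. It stood at 4.28, 5.65, 2.98 and 3.26 FPKM in the double knockdown, while the Tfap2c knockdown libraries held 6.42, 6.44, 3.07 and 4.37 FPKM. The Tead4 knockdown libraries held 6.17, 5.83, 5.56 and 4.86 FPKM, against 5.31, 6.02, 5.6 and 5.02 FPKM in the control. The low values were those of cross B in both groups with Tfap2c dsRNA. In the double knockdown the change was -0.39 (SE 0.146, adjusted p = 0.0641) and did not pass. It passed under median-ratio scaling (adjusted p = 0.0295), quantile normalization (0.0352), and without double knockdown A2 (0.0396), Tfap2c knockdown B1 (0.0356) or control A1 (0.0466). In the Tfap2c knockdown the change was -0.14 (95% interval -0.45 to 0.18), with both cross A libraries above their controls and both cross B libraries below theirs. The difference between crosses in that response was -0.59 and did not pass (adjusted p = 0.262).

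Klf9 (ENSMUSG00000033863) lies on the plus strand of chromosome 19 at 23141226 to 23168129. It stood at 4.76, 4.75, 6.31 and 5.82 FPKM in the double knockdown, while the Tfap2c knockdown libraries held 4.44, 4.67, 6.10 and 5.05 FPKM. With Tead4 dsRNA alone the libraries held 5.83, 4.88, 7.28 and 7.36 FPKM, against 6.57, 4.67, 4.92 and 5.45 FPKM in the control. All groups overlapped. The changes against the control were 0.00 in the double knockdown (95% interval -0.27 to 0.28), -0.08 in the Tfap2c knockdown (-0.35 to 0.20) and 0.19 in the Tead4 knockdown (-0.09 to 0.47), and none passed. By cross, means were at 84.6% (A) and 117% (B) of the control in the double knockdown. They were at 81.1% and 107% in the Tfap2c and at 95.3% and 141% in the Tead4 knockdown. These differences between crosses did not pass as interactions (adjusted p = 0.588, 0.516 and 0.725).

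Klf6 (ENSMUSG00000000078) lies on the plus strand of chromosome 13 at 5861489 to 5870393. It reached 1 FPKM in 1 library of 16. It stood at 0.0159, 0.109, 0.071 and 0.196 FPKM in the double knockdown, while the Tfap2c knockdown libraries held 0.0323, 0.0846, 0.582 and 0.206 FPKM. The Tead4 knockdown libraries held 0, 0.121, 0.682 and 0.283 FPKM, against 0.111, 0.146, 1.19 and 0.727 FPKM in the control. The higher values were those of cross B in every group but the double knockdown, where the crosses overlapped. Exact two-sided permutation tests of 4 against 4 libraries, whose smallest possible p is 0.0286, gave p = 0.143 for the double, 0.257 for the Tfap2c and 0.4 for the Tead4 knockdown. That test leaves cross out. Within each cross, both libraries of the double and of the Tfap2c knockdown lay below both controls, a pattern that 33.1% and 34.3% of the tested genes had in 1 direction or the other in these comparisons. In the limma fit with no filter, where Klf6 was included, its change was -0.43 in the double (adjusted p = 0.079), -0.29 in the Tfap2c (adjusted p = 0.24) and -0.25 in the Tead4 knockdown (adjusted p = 0.528), and none passed.

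**Figure D2:**
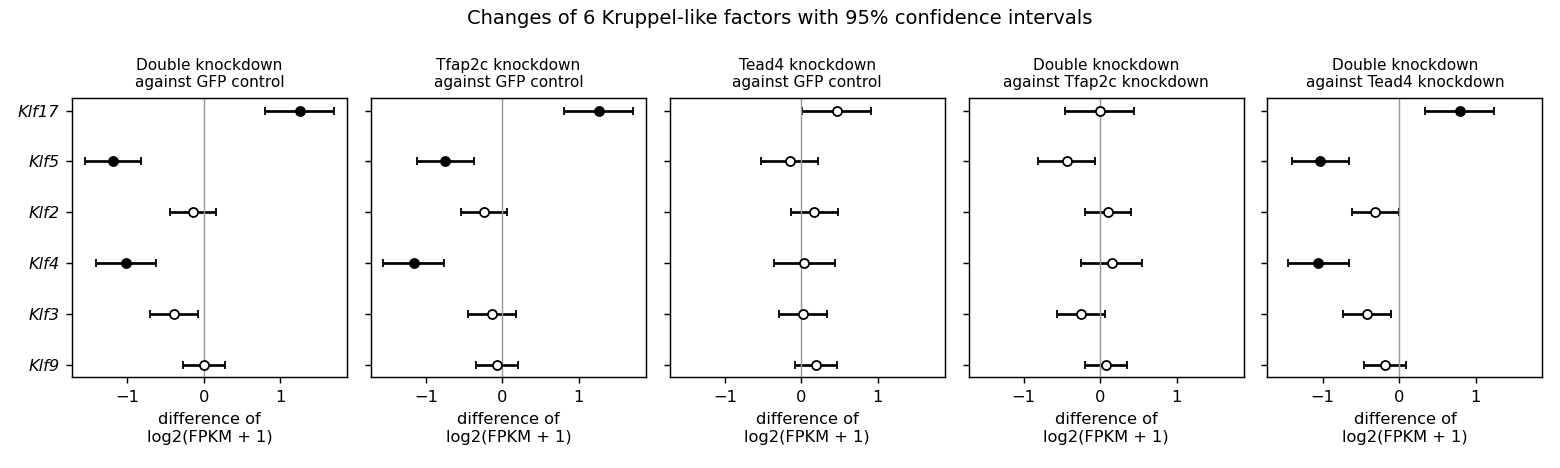
Differences of log2(FPKM + 1) for the 6 tested Krüppel-like factors (rows) in 5 comparisons (panels), with 95% confidence intervals from limma, where filled points passed at an adjusted p under 0.05 and open points did not. Klf4 and Klf5 are filled and below 0, and Klf17 filled and above 0, wherever a group with Tfap2c dsRNA meets one without it, and no point is filled for the Tead4 knockdown against the control or the double against the Tfap2c knockdown.

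Adding Tead4 dsRNA to Tfap2c dsRNA gave no change in a member that passed. In the double against the Tfap2c knockdown, where 0.14% of all genes passed, Klf5 differed by -0.44 (SE 0.174, 95% interval -0.81 to -0.07, adjusted p = 0.418). Its cross A libraries, at 13.7 and 13.8 FPKM in the double knockdown against 25.5 and 29.6 FPKM in the Tfap2c knockdown, were apart, and its cross B libraries overlapped. Klf17 differed by -0.01 (95% interval -0.46 to 0.45), where both double knockdown libraries were higher in cross A and both were lower in cross B. For Klf5 and Klf17 the difference between crosses in this comparison was not tested. The share of all genes separated in this way within a cross was not counted. Klf4 differed by 0.15 (-0.25 to 0.54), Klf3 by -0.26 (-0.57 to 0.06), Klf2 by 0.10 (-0.20 to 0.41) and Klf9 by 0.08 (-0.20 to 0.35).

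Adding Tfap2c dsRNA to Tead4 dsRNA gave changes that passed in 3 of the 6 tested members. In the double against the Tead4 knockdown, where 23.7% of all genes passed, Klf4 fell by 1.05 (adjusted p = 0.000821), Klf5 fell by 1.03 (adjusted p = 0.000622) and Klf17 rose by 0.79 (SE 0.212, adjusted p = 0.0132). The Klf17 call was lost without Tead4 knockdown B2 (0.62, adjusted p = 0.0513) and without the term for cross (adjusted p = 0.166). Klf3 differed by -0.42 (adjusted p = 0.0524). It passed with a pseudocount of 0.1 (adjusted p = 0.0493), under median-ratio scaling (0.0441), and without double knockdown A2 (0.0321) or Tfap2c knockdown B1 (0.0278). Klf2 and Klf9 differed by -0.31 (adjusted p = 0.134) and -0.19 (adjusted p = 0.326). Within each cross Klf2, Klf3 and Klf9 were lower in both double knockdown libraries than in both Tead4 knockdown libraries, and 32.0% of all genes tested were separated in this way in 1 direction or the other. The double knockdown shares its libraries among these comparisons, and the knockdowns share their controls.

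The double knockdown was also set against the sum of both single changes. No member passed in this non-additive part, where 0.753% of all genes did. The estimate was -0.47 for Klf17 (SE 0.299, 95% interval -1.10 to 0.17), -0.28 for Klf5 (-0.81 to 0.24), -0.28 for Klf3 (-0.72 to 0.16), 0.11 for Klf4 (-0.45 to 0.67), -0.11 for Klf9 (-0.50 to 0.28) and -0.07 for Klf2 (-0.50 to 0.36).

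The crosses differed for Klf17 and Klf3, in the same fit, with 33.5% of all genes passing. Klf17 averaged 74.5 ± 39.0 FPKM in cross B and 123 ± 39.9 FPKM in cross A (SD, n = 8 each), a log2 difference of -0.82 (SE 0.15, adjusted p = 0.000858). In control embryos alone it averaged 38.3 ± 2.81 FPKM in cross B and 70.8 ± 8.09 FPKM in cross A (n = 2 each). In the Tfap2c knockdown the crosses were close, at 123 ± 3.51 and 129 ± 0.175 FPKM. Klf3 averaged 4.34 ± 1.10 FPKM in cross B and 5.77 ± 0.71 FPKM in cross A (log2 difference -0.36, adjusted p = 0.0146). Klf5 at 0.31 (adjusted p = 0.0628), Klf9 at 0.21 (0.0901), Klf4 at 0.12 (0.507) and Klf2 at 0.11 (0.431) did not pass. Klf5 passed without Tfap2c knockdown A2 (0.0237), B1 (0.0367) or B2 (0.0394), and Klf9 without control A1 (0.0169). Klf6, outside the filter, averaged 0.492 ± 0.373 FPKM in cross B and 0.0775 ± 0.0543 FPKM in cross A (n = 8 each), and in the fit with no filter it passed as higher in cross B (log2 difference 0.43, SE 0.101, adjusted p = 0.0121). Cross is the maternal strain named in the labels, and any other difference between the A and B libraries cannot be told apart from it.

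**Figure D3:**
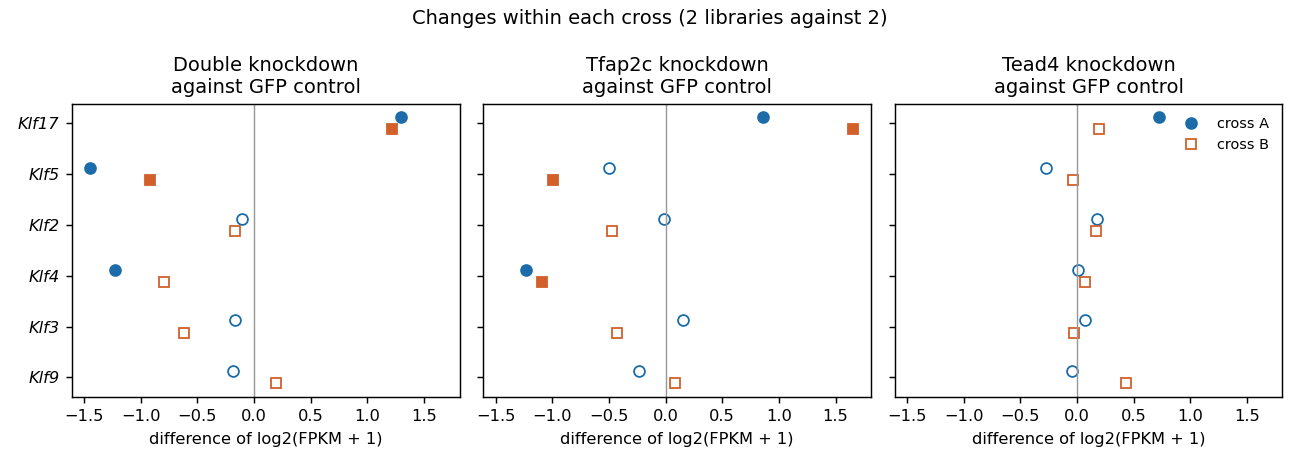
Differences of log2(FPKM + 1) against the GFP control within each cross (2 libraries against 2) for the 6 tested Krüppel-like factors, with circles for cross A, squares for cross B and filled symbols for an adjusted p under 0.05 in limma. Klf17 gave 1.66 in cross B and 0.86 in cross A in the Tfap2c knockdown, and Klf3 and Klf9 each lie on opposite sides of 0 there.

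Whether a response itself differed between crosses was tested as an interaction. Of all genes, 0.0% passed for each knockdown by limma, with 1888 genes at an unadjusted p under 0.05 for the Tfap2c, 797 for the Tead4 and 1284 for the double knockdown. With 2 libraries per group and cross, a difference that did not pass is not shown to be absent. More target RNA was left in cross B, as a percentage of the control mean of the same cross. In the Tfap2c knockdown Tfap2c stood at 55.9% in cross B and 35.7% in cross A, and Tead4 at 76.1% and 42.8%. In the double knockdown Tfap2c stood at 52.9% and 39.7%, and Tead4 at 27.3% and 12.9%. The Tfap2c response differed by 0.62 in the Tfap2c knockdown and did not pass (adjusted p = 0.114). The part of this in the values below was not tested. Klf17 responded to Tfap2c dsRNA by 1.66 in cross B and 0.86 in cross A, a difference of 0.80 (SE 0.258, adjusted p = 0.171). Klf5 responded to it by -0.99 in cross B and -0.50 in cross A, a difference of -0.49 (SE 0.227, adjusted p = 0.305). In the double knockdown the order for Klf5 was the other way, -0.92 in cross B and -1.45 in cross A, a difference of 0.53 (SE 0.227, adjusted p = 0.405). For Klf4 the differences between crosses were 0.15, 0.06 and 0.44 in the Tfap2c, the Tead4 and the double knockdown (SE 0.383, adjusted p from 0.719 to 0.99).

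Klf17 and Klf5, the most abundant members, moved apart. The Klf17 level over the Klf5 level was 13.1, 12.4, 5.43 and 2.54 in the double knockdown, 5.05, 4.36, 5.25 and 5.44 in the Tfap2c knockdown, 3.82, 3.44, 1.03 and 0.901 in the Tead4 knockdown and 1.77, 1.82, 0.881 and 0.761 in the control. The ratio was above every control library in all libraries with Tfap2c dsRNA, and it was spread widest in the double knockdown. Both cross A libraries of the Tead4 knockdown, at 3.82 and 3.44, were also above every control library and above double knockdown B2 at 2.54. Klf17 made up 72.0 ± 12.4% of the summed FPKM of the 7 members in the double knockdown, 70.8 ± 1.96% in the Tfap2c knockdown and 48.1 ± 16.9% in the Tead4 knockdown, against 39.9 ± 10.1% in the control. The sum itself was 180 ± 41.8, 178 ± 9.64 and 160 ± 33.6 FPKM in these knockdowns, against 134 ± 16.3 FPKM in the control. These ratios and sums restate the single genes and were not tested.

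**Figure D4:**
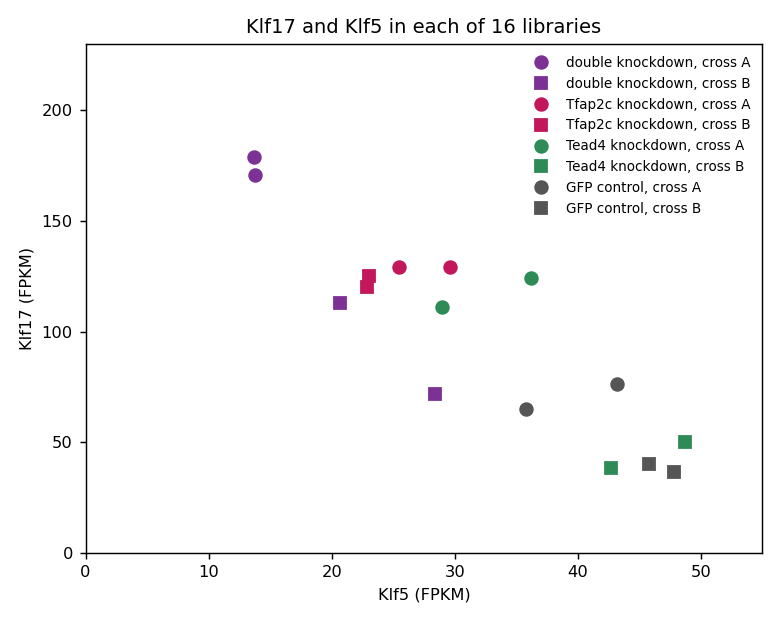
Klf17 (vertical axis, FPKM) against Klf5 (horizontal axis, FPKM) in 16 libraries, coloured by injected dsRNA, with circles for cross A and squares for cross B. The double knockdown libraries of cross A lie at the upper left (179 and 13.7 FPKM for A1) and the control libraries of cross B at the lower right (36.4 and 47.8 FPKM for B2).

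Of the other Krüppel-like and Sp factors, relatives with the same kind of zinc fingers, 20 were listed, 19 were in the table and 9 were tested. The other 10, Klf1, Klf7, Klf12, Klf14, Klf15, Sp4, Sp5, Sp7, Sp8 and Sp9, reached at most 0.602 FPKM in any library. In the Tfap2c knockdown 3 of the 9 rose and 3 fell, with a median change of -0.01 beside 0.06 over all genes tested. In the double knockdown 3 rose and 2 fell, with a median of 0.01 beside 0.05. None passed in the Tead4 knockdown, with a median of 0.14 beside 0.05. The counts of this list and of those below stand beside 25.1% of all genes that passed in the double, 29.6% in the Tfap2c and 6.13% in the Tead4 knockdown.

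Klf10, a TGF-beta-inducible repressor, fell most in this list. It averaged 3.81 ± 1.30 FPKM in the double knockdown, 3.36 ± 1.39 in the Tfap2c knockdown and 13.7 ± 4.91 in the Tead4 knockdown, against 10.6 ± 1.61 in the control. Its change was -1.30 (adjusted p = 0.00185) in the double and -1.46 (SE 0.256, adjusted p = 0.000691) in the Tfap2c knockdown. Klf11, its close relative, went the other way. It averaged 10.1 ± 0.556 FPKM in the double knockdown, 10.5 ± 2.19 in the Tfap2c knockdown and 5.54 ± 0.486 in the Tead4 knockdown, against 5.91 ± 1.98 in the control, and it rose by 0.72 (adjusted p = 0.00667) in the double and by 0.75 (adjusted p = 0.00453) in the Tfap2c knockdown.

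Among the Sp factors, Sp3, a ubiquitous activator or repressor, averaged 16.6 ± 6.31 FPKM in the double and 16 ± 3.17 in the Tfap2c knockdown, against 9.71 ± 3.82 in the control. It rose by 0.72 in both (adjusted p = 0.00125 and 0.00102). Sp2 fell in both, by 0.41 in the double (adjusted p = 0.0455) and by 0.48 in the Tfap2c knockdown (adjusted p = 0.0177). Klf16 passed in no knockdown. To complete the 9, and chosen after their values were seen, Sp6 rose by 0.79 in the double and 0.72 in the Tfap2c knockdown, Klf8 fell by 0.43 in the Tfap2c knockdown with -0.26 in the double (adjusted p = 0.153), and Klf13 and Sp1 passed in neither.

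**Figure D5:**
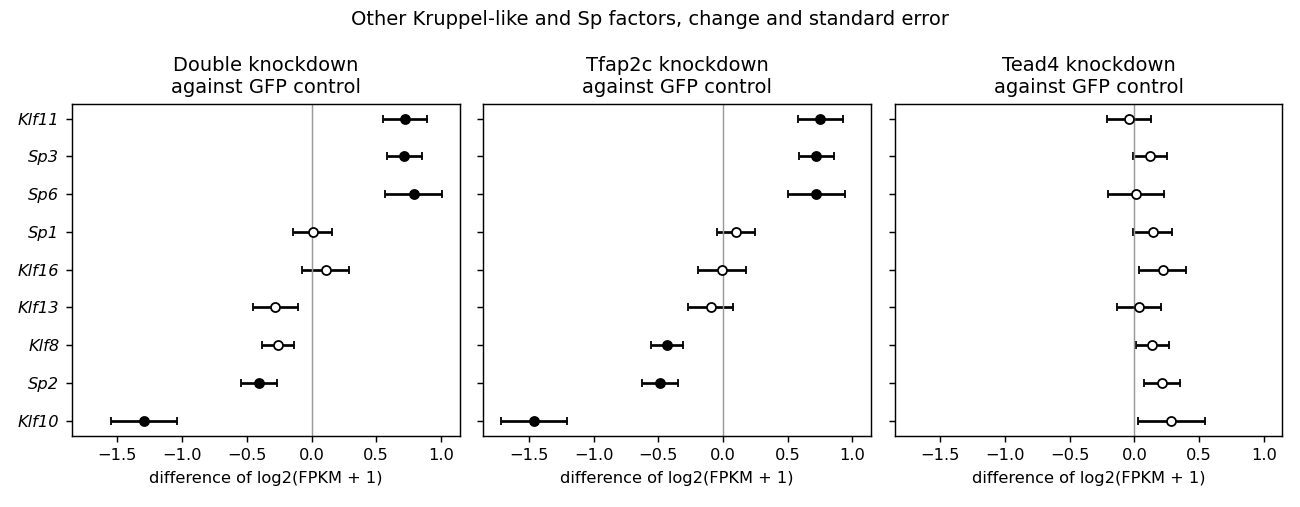
Differences of log2(FPKM + 1) with their standard errors for the 9 other Krüppel-like and Sp factors that were tested, in each knockdown against the GFP control, where filled points passed at an adjusted p under 0.05. Klf11, Sp3 and Sp6 are filled above 0 and Klf10 and Sp2 filled below 0 in both groups with Tfap2c dsRNA, and no point is filled for the Tead4 knockdown.

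Genes listed as pluripotency partners of Klf2, Klf4 and Klf5, not all of them transcription factors, number 16, of which 13 were tested. In the Tfap2c knockdown 8 fell and 0 rose, with a median of -0.52 beside 0.06 over all genes. In the double knockdown 6 fell and 0 rose, with a median of -0.37 beside 0.05. Esrrb, an orphan nuclear receptor of the naive network, averaged 3.31 ± 1.42 FPKM in the double knockdown, 1.95 ± 0.454 in the Tfap2c knockdown and 9.63 ± 1.46 in the Tead4 knockdown, against 8.13 ± 0.727 in the control. It fell by 1.64 on the log2 scale in the Tfap2c knockdown (adjusted p = 6.67e-06) and by 1.14 in the double (adjusted p = 0.000154). Tfcp2l1, another factor of that network downstream of STAT3, fell by 2.11 in the Tfap2c (adjusted p = 0.000195) and by 1.67 in the double knockdown (adjusted p = 0.00135). Dppa3, a maternal factor, fell by 0.45 and 0.37 (adjusted p = 0.000428 and 0.00193) in the same order. In the Tead4 knockdown 1 of 13 passed: Prdm14, a naive pluripotency regulator, rose by 1.04 (adjusted p = 0.0121), with low means of 3.18 ± 0.982 FPKM in the knockdown and 1.0 ± 0.134 FPKM in the control. Zfp42 and Sall4 passed in no knockdown.

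LIF acts through its receptor, JAK kinases and STAT3 on Klf4 in stem cells. Of 17 genes listed for that pathway 12 were tested, and Lif and both receptor genes, Lifr and Il6st, did not pass the filter. With Tfap2c dsRNA alone 4 rose and 2 fell, in the Tead4 knockdown 3 rose and 0 fell, and in the double 6 rose and 1 fell. Medians were 0.33, 0.16 and 0.39, beside 0.06, 0.05 and 0.05 over all genes. Stat3 averaged 1.41 ± 0.336 FPKM in the double knockdown, 0.78 ± 0.166 in the Tfap2c knockdown and 2.94 ± 0.493 in the Tead4 knockdown, against 1.89 ± 0.4 in the control. It fell by 0.70 in the Tfap2c knockdown (adjusted p = 0.00103), with 0.45 in the Tead4 (adjusted p = 0.0534) and -0.27 in the double knockdown (adjusted p = 0.15). Socs1, a feedback inhibitor of JAK kinases, rose in all 3, by 0.81 in the double (adjusted p = 0.0187), 1.45 in the Tfap2c (adjusted p = 0.000321) and 0.83 in the Tead4 knockdown (adjusted p = 0.045). Its levels were low, at means of 2.05 ± 1.76, 3.4 ± 1.66 and 1.85 ± 1.09 FPKM in that order, against 0.564 ± 0.462 FPKM in the control. The double knockdown overlapped the control, with A1 and A2 at 0.513 and 0.627 FPKM and control B1 at 1.25 FPKM. Socs1 was also higher in cross B, by 0.91 (adjusted p = 0.00076). Ptpn11, the phosphatase SHP2, rose by 0.93 in the Tead4 knockdown (adjusted p = 0.000335) and by 0.38 in the double (adjusted p = 0.0297). Pim1, a kinase gene induced by STAT3, rose by 0.62 in the Tfap2c and 0.41 in the double knockdown, and Socs2 rose by 0.56 in the Tead4 knockdown (adjusted p = 0.0405).

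Of 19 corepressors, coactivators and ubiquitin ligases known to act with Krüppel-like factors, 16 were tested. With Tfap2c dsRNA alone 1 rose and 5 fell, in the Tead4 knockdown 1 rose and 0 fell, and in the double 2 rose and 5 fell, with medians of 0.00, 0.07 and 0.07 beside 0.06, 0.05 and 0.05 over all genes. Wdr5, a subunit of histone methyltransferase complexes, averaged 53.2 ± 11.2 FPKM in the double and 52.1 ± 12 in the Tfap2c knockdown, against 96.7 ± 14.5 in the control (log2 changes -0.86 and -0.89, adjusted p = 3.19e-05 and 1.73e-05). Fhl3, a LIM-domain cofactor, fell by 0.95 in both. Its levels were near the filter of 1 FPKM, at means of 0.476 ± 0.287 FPKM in the double and 0.513 ± 0.484 FPKM in the Tfap2c knockdown, against 1.89 ± 0.809 FPKM in the control. Kdm1a, the histone demethylase LSD1, rose by 0.72 in the double (adjusted p = 0.000253) and by 0.61 in the Tfap2c knockdown (adjusted p = 0.000739). Hdac2, a histone deacetylase, fell by 0.79 in the double (adjusted p = 0.00561) and by 0.59 in the Tfap2c knockdown (adjusted p = 0.0244), and it rose by 0.76 in the Tead4 knockdown (adjusted p = 0.0232). Wwp1, a ubiquitin ligase that acts on Klf2 and Klf5, rose by 0.40 in the double knockdown (adjusted p = 0.0402) at means of 1.0 ± 0.258 FPKM there and 0.51 ± 0.173 FPKM in the control.

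For each tested member the genes with the most similar profile were looked up by Pearson's r of log2(FPKM + 1) over the 16 libraries, among 5695 genes with a mean of at least 5 FPKM. These values describe libraries that share their group and cross, and carry no p. Klf17 was followed most closely by Cyp2c44, a cytochrome P450 gene (r = 0.973), and Tmem229b (0.965). Cyp2c44 averaged 8.33 FPKM in the double, 7.90 in the Tfap2c and 3.95 in the Tead4 knockdown, against 2.97 FPKM in the control. Klf5 was followed most closely by Pou5f1, which encodes Oct4 (0.937), and by Nedd4l (0.93). Pou5f1 averaged 16.6 FPKM in the double, 17.4 in the Tfap2c and 38.2 in the Tead4 knockdown, against 37.2 FPKM in the control. Klf4 was followed most closely by Polr1b, an RNA polymerase I subunit (0.954), and Rnf7 (0.945). Values were lower for the members that did not pass: Ssr2 (0.898) and Nat9 (0.869) for Klf3, Creg1 (0.85) and Sf3b2 (0.849) for Klf2, and Arhgap10 (0.817) and Pdpk1 (0.809) for Klf9.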

How the data were processed

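Polyadenylated RNA of pooled 8-cell embryos was amplified by a Smart-seq2 procedure, per the labels' protocols. The deposited values are FPKM per gene, computed by the authors before deposit. CASAVA, Trim Galore, STAR, Cufflinks and mm10 are named in the submitters' processing notes, and their roles and versions, like the annotation, were not given in the sources used here. Of 43496 lines, 59 repeated an identifier and were summed. In all, 27 names turned into dates were restored, and 0 columns belonged to other samples. Read totals were not used here, so counting error is unknown, and the spread over 4 libraries a group sets the precision.

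Genes that reached 1 FPKM in 4 or more of 16 libraries were transformed as log2(FPKM + 1), the pseudocount being 1. They were modelled by limma 3.58.1 under R 4.3.3 (lmFit, eBayes with trend, terms for group and cross). A second fit added their interaction. Tests were two-sided, with Benjamini-Hochberg adjustment over 11422 genes. The fit was run on simulated data with planted changes, drawn around each gene's fitted mean and spread. Such data follow the model, so this run cannot test the model's assumptions. A change on this scale understates that of low genes. Klf6 was tested by exact permutation. Alternatives were no filter, a filter at 5 FPKM, a pseudocount of 0.1, median-ratio scaling, quantile normalization, no term for cross, a replicate block, the compared groups alone, each cross alone and leaving out each library.

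The text names the members, Tfap2c, Tead4, up to 3 genes of each list by lowest p in each of the Tfap2c and the Tead4 knockdown, and 2 genes most like each tested member. Members and lists were chosen with earlier results of these data known.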

Additional observations from a re-analysis of the deposited data

Results flagged for a closer look

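In the double knockdown, Klf2 stood at 15.5 FPKM in library B2, apart from the other 3 libraries of that group at 12 to 12.5 FPKM. The gap took 0.859 of the group's range, above Dixon's critical value for a group of that size. In all, 28 groups of 4 libraries were examined, and chance marks about 1 in 20.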

How the results depend on the processing

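Of 1434 member values recomputed under the alternatives, 1360 kept their direction and side of the threshold, 4 lost the call, 14 gained it, 0 passed in the opposite direction and 56 changed sign without passing in either setting. The 18 gains and losses are printed beside their genes. The causes were not tested. In the Tead4 knockdown the count of members that passed was 1 in cross A alone (Klf17), against 0. Leaving out each library left 3 members in the Tfap2c knockdown, 3 to 4 in the double, 2 to 4 in the double against the Tead4 knockdown and 2 to 3 between crosses. With no filter, 3 members passed between crosses, Klf6 being the added one.

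Over all genes, the 3377 calls of the Tfap2c knockdown were 2165 without the term for cross, 1776 in cross A and 2218 in cross B, where each cross holds fewer libraries. The 700 of the Tead4 knockdown were 279, 250 and 81 in these settings, and 407 to 753 on leaving out a library (407 without control B2, 446 without Tead4 knockdown B1). The 2872 of the double were 1786, 1816 and 1227, and the 2712 of the double against the Tead4 knockdown 1644, 1404 and 1533. The 16 of the double against the Tfap2c knockdown were 4 with no filter, 4 with a pseudocount of 0.1, 3 without cross, 2 with those groups alone, 2 in cross A and 1 to 22 without a library. The 86 non-additive calls were 14 with no filter, 7 without cross, 2 in cross A, 3 in cross B and 12 to 113 without a library. For differences between crosses, the 0 calls of the Tfap2c response were 55 with no filter, 51 at 5 FPKM, 7 with a pseudocount of 0.1, 11 with either scaling and 0 to 48 without a library. Those of the Tead4 response were 32 with no filter and 0 to 3 without a library, and those of the double 26 with no filter, 9 and 15 with median-ratio scaling and quantile normalization, and 0 to 52 without a library. Higher genes made up 55.3% of calls in the Tfap2c knockdown and 44.0% under median-ratio scaling, and 54.7% in the Tead4 knockdown against 38.5%.

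The replicate numbers were checked for pairing: deviations of same-numbered libraries correlated from -0.165 to 0.176 over 12 pairs of groups. Of these, 2 exceeded the limit of 0.1 set for the check. Both were between the Tfap2c knockdown and the GFP control, at 0.131 in cross A and 0.176 in cross B. With 2 libraries per group and cross, the check cannot exclude a shared mating or day. With a replicate block the double against the Tfap2c knockdown gave 8 calls and the non-additive part 36, and no member's call changed.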

Other observations

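Immediate early genes, to which several Krüppel-like factors are often added, were mostly low in these embryos, and 7 of the 20 listed were tested. In the Tfap2c knockdown 2 rose and 2 fell (median -0.21, beside 0.06 over all genes), in the Tead4 knockdown 1 rose and 0 fell (0.11 beside 0.05), and in the double 2 rose and 2 fell (-0.14 beside 0.05). Of all genes, 29.6% passed in the Tfap2c, 6.13% in the Tead4 and 25.1% in the double knockdown. Ier3, an early-response gene, averaged 1.24 ± 0.542 FPKM in the double knockdown, 6.28 ± 2.62 in the Tfap2c knockdown and 0.324 ± 0.229 in the Tead4 knockdown, against 0.218 ± 0.13 in the control. It rose by 2.50 in the Tfap2c (adjusted p = 9.17e-06) and by 0.85 in the double knockdown (adjusted p = 0.0254). Myc fell by 1.06 in the Tfap2c (adjusted p = 0.011) and by 1.10 in the double knockdown (adjusted p = 0.0101). Between crosses, 6 of the 7 were higher in cross B and 0 lower, where 33.5% of all genes passed.

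Of 10 glucocorticoid response genes, listed because Klf9 is hormone-responsive, 3 were tested. Sgk1, a kinase gene, averaged 87.1 ± 11.3 FPKM in the double knockdown, 94.8 ± 11.1 in the Tfap2c knockdown and 73.0 ± 4.71 in the Tead4 knockdown, against 118 ± 3.12 in the control, and fell in all 3 (adjusted p = 0.00129, 0.00942 and 0.000198). Dusp1 and Klf13 passed in no knockdown, and Nr3c1, the receptor gene, did not pass the filter. Medians of these 3 genes were -0.28, -0.10 and -0.55 in the double, the Tfap2c and the Tead4 knockdown.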
